A study of Mus musculus with 8 samples.

Results

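Levels of 38 genes of fatty acid synthesis, desaturation, triglyceride assembly and lipid droplets were followed in mouse liver tumour organoids, before and after exposure to lenvatinib and in cultures resistant to it. The genes were taken by symbol from a named list, chosen with earlier results of these data known. All 38 were found among the 45777 genes of the count tables. Organoids are 3-dimensional cultures, here labelled as hepatocellular carcinoma related to metabolic dysfunction-associated steatohepatitis (MASH), a liver disease with fat storage and inflammation. The study's stated aim was to establish such organoids, and its design text also names multi-biotics, with no library of that kind analysed here. Total RNA was sequenced from 8 bulk libraries made with a stranded mRNA kit.

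All 8 libraries carry the genotype label WT and none carries an engineered allele. The parental group is untreated, with 1 library of SNU-6621, 1 of SNU-6622, 1 of SNU-6624 and 1 of SNU-6625, under the treatment label control. The lenvatinib group holds lines SNU-6624 and SNU-6625 under lenvatinib, a kinase inhibitor used against liver cancer whose targets include the receptors of VEGF and FGF. The resistant group holds the lenvatinib-resistant cultures of the same 2 lines, again with the treatment label control. The sources used here state neither the dose and exposure time nor the animals' age, and each line is a single culture with 1 library per condition. In such bulk samples, fewer cells of a type and less RNA per cell cannot be told apart.

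Cells build fatty acids from citrate. ATP citrate lyase turns citrate into acetyl-CoA, acetyl-CoA carboxylase makes malonyl-CoA, and fatty acid synthase joins these units into palmitate, which elongases lengthen and desaturases give double bonds. Long-chain acyl-CoA synthetases activate the products, a series of acyltransferases and lipins builds triglyceride, and perilipins coat the droplets that store it until lipases release it again. In liver the transcription factors SREBP-1c (from Srebf1) and ChREBP (from Mlxipl) drive the synthesis genes, and excess droplets define steatosis.

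The 2 stearoyl-CoA desaturase genes, Scd1 (chr19:44394450-44407709) and Scd2 (chr19:44293676-44306864), recur in the comparisons below and resemble each other, so their sequences are shown to make clear how far their reads can be told apart. Their coding sequences, from GENCODE M21, had 1068 and 1077 bases and matched at 90.4% of aligned bases. Of the 50-base words of the Scd1 exons, 2.995% also occurred in Scd2, against 2.68% in the other direction. Scd3 and Scd4, which are not members, held 3.45% and 1.74% of the Scd1 words. The most alike stretch of 60 bases, at coding bases 442 to 501 of Scd1 and 451 to 510 of Scd2, had 0 differences, so that a read inside it matches both genes.
Scd1 most alike: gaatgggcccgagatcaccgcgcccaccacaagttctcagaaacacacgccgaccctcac
Scd2 most alike: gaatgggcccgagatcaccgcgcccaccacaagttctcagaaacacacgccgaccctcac
The least alike stretch of 60 bases, at coding bases 79 to 138 of Scd1 and 88 to 147 of Scd2, had 24 differences, which stand in capitals.
Scd1 least alike: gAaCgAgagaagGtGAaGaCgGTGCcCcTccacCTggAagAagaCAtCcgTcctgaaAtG
Scd2 least alike: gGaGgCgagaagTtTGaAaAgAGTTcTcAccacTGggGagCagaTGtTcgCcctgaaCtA
Where Scd1 counts were a small share of Scd2 counts, the Scd1 level is uncertain, because reads from shared stretches may have been split between the genes. Scd1 counts came to 0.283%, 0.116%, 2.92% and 0.722% of Scd2 counts in the parental library of SNU-6621, of SNU-6622, of SNU-6624 and of SNU-6625. The shares were 0.546% and 0.107% under lenvatinib and 0.943% and 0.286% in the resistant cultures of SNU-6624 and SNU-6625. Among the other families, Fads2 and Fads3 shared 5 such words, and the Elovl, Acsl, Lpin and Dgat pairs examined shared 0.

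Promoters are shown for 5 members whose levels differed below, with motifs known from lipogenic promoters in capitals. The RefSeq promoter table (GRCm38.p6, the primary assembly of mm10) held 32 of the 38 members, with 45 start sites, and the 250 bases before each start were searched on both strands. The motifs were the core of the sterol regulatory element bound by SREBPs (TCACNCCAC), the E-box (CACGTG) that ChREBP and USF factors can bind, the CCAAT box of NF-Y and the GC box of SP factors (GGGCGG). The sterol regulatory element core stood in 2 of the 45 member promoters (4.44%, against 1.05% of all 32851 promoters), those of Mlxipl and Acsl1. The E-box stood in 5 (11.1% against 6.02%), the CCAAT box in 19 (42.2% against 33.9%) and the GC box in 26 (57.8% against 32.7%). Of the 3 listed Srebf1 starts, the window of the one at chr11:60210472-60210721 on the minus strand holds 1 CCAAT box and 2 GC boxes.
Srebf1: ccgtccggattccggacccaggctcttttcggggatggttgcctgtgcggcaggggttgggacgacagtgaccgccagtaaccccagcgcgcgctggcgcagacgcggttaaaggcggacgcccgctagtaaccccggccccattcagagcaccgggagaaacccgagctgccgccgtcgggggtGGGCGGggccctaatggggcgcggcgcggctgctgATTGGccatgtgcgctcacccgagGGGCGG
The Fasn window, at chr11:120824548-120824797 on the minus strand, holds 3 CCAAT matches, of which a pair overlaps on opposite strands. It lies inside the annotated gene (chr11:120805958-120825166), so the bases before the outermost Fasn start were not searched.
Fasn: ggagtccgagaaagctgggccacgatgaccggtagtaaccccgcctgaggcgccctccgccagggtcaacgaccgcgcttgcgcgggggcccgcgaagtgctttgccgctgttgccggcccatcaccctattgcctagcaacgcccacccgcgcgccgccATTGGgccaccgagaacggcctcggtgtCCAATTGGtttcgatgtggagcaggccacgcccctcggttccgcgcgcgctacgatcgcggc
The Elovl6 window, at chr3:129532136-129532385 on the plus strand, holds 0 matches to these motifs.
Elovl6: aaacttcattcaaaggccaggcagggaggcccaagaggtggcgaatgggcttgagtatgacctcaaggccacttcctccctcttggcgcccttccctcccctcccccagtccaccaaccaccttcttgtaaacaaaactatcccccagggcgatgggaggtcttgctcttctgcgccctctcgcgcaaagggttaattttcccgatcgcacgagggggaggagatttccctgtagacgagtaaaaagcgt
The Acsl5 window, at chr19:55253119-55253368 on the plus strand, holds 1 CCAAT match. It too lies inside the annotated gene (chr19:55251861-55296628), and the bases before the outermost Acsl5 start were not searched.
Acsl5: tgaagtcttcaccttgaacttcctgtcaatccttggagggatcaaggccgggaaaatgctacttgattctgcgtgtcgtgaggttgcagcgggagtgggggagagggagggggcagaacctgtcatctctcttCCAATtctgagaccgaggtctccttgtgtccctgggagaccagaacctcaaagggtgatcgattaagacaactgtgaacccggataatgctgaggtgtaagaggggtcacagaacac
One of the Acsl1 windows, at chr8:46490716-46490965 on the plus strand, holds 1 sterol regulatory element core and 2 CCAAT matches.
Acsl1: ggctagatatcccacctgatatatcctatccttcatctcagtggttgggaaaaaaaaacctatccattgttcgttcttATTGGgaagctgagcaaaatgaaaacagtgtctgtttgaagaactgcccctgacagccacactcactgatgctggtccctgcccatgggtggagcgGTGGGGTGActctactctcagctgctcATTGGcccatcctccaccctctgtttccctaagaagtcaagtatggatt
A match shows only that these letters occur in the window.

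Libraries held 49.0 to 61.0 M counts (M, megacounts), so that 3 counts, the limit that a count of 0 allows, correspond to 0.0492 to 0.0612 CPM (counts scaled to a library total of 1 M). The labelled tumour type was checked against hepatocyte markers: Alb, the albumin gene, had 0 counts in all 8 libraries. The 7 hepatocyte markers together reached 46.6 CPM in parental SNU-6621 and at most 2.43 CPM in every other library. The 6 biliary epithelial markers (Krt7, Krt19, Epcam, Sox9, Prom1 and Spp1) summed to 6761 to 7942 CPM in parental, 2241 to 2737 in lenvatinib and 9107 to 11732 in resistant libraries, all 6 above 0 throughout. The markers moved unequally from parental to lenvatinib in SNU-6624 and SNU-6625. Mean Krt19 went from 2994 to 336, Krt7 from 2181 to 855 and Prom1 from 1258 to 861 CPM. Epcam went from 425 to 377, Spp1 from 7.31 to 0.843 and Sox9 up from 39.1 to 59.15 CPM. The 5 adipocyte markers, whose cells also use these lipid genes, summed to at most 1.36 CPM, with 3 or 4 of them at 0 counts in each library. Sums were at most 1.10 CPM for 5 fibroblast and 1.51 CPM for 4 endothelial markers, and 24.5 to 58.1 CPM for 5 macrophage markers. Of the macrophage markers, 3 had 0 counts in each library. In SNU-6624 and SNU-6625 the sum was nearly all Cd68, with means of 26.0 (parental), 39.7 (lenvatinib) and 40.1 CPM (resistant). Csf1r reached at most 0.954 CPM as a group mean there. Resistant SNU-6625 stood apart from resistant SNU-6624: Mki67, a gene of dividing cells, had 17 counts in it and 1970 in the other, against 84 and 105 under lenvatinib and 11437 to 12767 in the parental libraries of these 2 lines. The share of counts from ribosomal RNA genes was 0.0942% to 0.1103% in parental libraries and 0.0411% to 0.0533% in all others. The part of epithelial identity, growth and library preparation in the differences below was not tested.

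In the parental lines 26 of the 38 members had at least 10 CPM in every line. The level per kilobase of exon was highest for Scd2, at 418 ± 176 CPM per kb (SD, n = 4 lines). Next came the acyl-CoA synthetase Acsl5 at 96.1 ± 25.4, ATP citrate lyase (Acly) at 63.7 ± 8.17, the elongase Elovl1 at 52.9 ± 23.2 and fatty acid synthase (Fasn) at 46.2 ± 10.8 CPM per kb. Over the lines the ranges of these 4 neighbours overlap, except those of Acsl5 and Fasn (58.7 to 113 against 32.2 to 54.98 CPM per kb). Within every line Acsl5 stood above Acly and Acly above Fasn, whereas the place of Elovl1 changed between lines. At the low end, 7 members stayed under 3 CPM in all 8 libraries. Of these, G0s2, an inhibitor of adipose triglyceride lipase, and Mgll, monoacylglycerol lipase, had 0 counts in every library, and Elovl3 reached 0.0574 CPM in 1 library only. Thrsp, a lipogenic cofactor, reached 0.899 CPM, the droplet coat gene Plin5 0.535, the droplet fusion gene Cidec 2.35 and the lipase gene Pnpla3 2.61 CPM.

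Lines SNU-6622, SNU-6624 and SNU-6625 were alike for most members, and SNU-6621 stood lower. Of the 30 members with at least 10 CPM in their highest line, 25 stayed within 2-fold over those 3 lines, and 22 of the 30 were lowest in SNU-6621. The members with at least a 3-fold range over the lines numbered 9, and SNU-6621 was the highest or the lowest line for 8 of them. With 1 library per line these ranges carry no test, and the same counts were not made over all genes. Whether SNU-6621 stood lower for these members in particular was therefore not tested.

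The desaturase genes Fads1, Fads2 and Fads3, which lie side by side on chromosome 19, were highest in SNU-6621. Fads1, the delta-5 desaturase, had 149 CPM in SNU-6621 and 1.98, 4.30 and 7.37 CPM in SNU-6622, SNU-6624 and SNU-6625. Fads2, the delta-6 desaturase, had 240 CPM in SNU-6621 against 35.5, 55.6 and 77.0, and Fads3 had 55.01 against 10.1, 29.2 and 43.5 CPM. The order of the lines was the same for all 3 genes. Acacb, the acetyl-CoA carboxylase associated with mitochondria, went the other way: it had 0.899 CPM in SNU-6621 and 67.4, 84.5 and 82.3 CPM in the other lines. Acss2, which makes acetyl-CoA from acetate, had 24.5 CPM in SNU-6621 and 119, 135 and 135 CPM elsewhere. The cytosolic carboxylase gene Acaca had 75.7 to 89.98 CPM over all 4 lines and showed no such gap.

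Among the rest with a 3-fold range, Elovl1, which extends saturated chains, had 52.9 CPM in SNU-6621 and 191, 151 and 182 CPM in the other lines. Acsl3, an acyl-CoA synthetase found on growing droplets, had 43.6 CPM against 154, 129 and 148, and Hilpda, a droplet protein that inhibits adipose triglyceride lipase, had 7.17 CPM against 30.3, 20.8 and 14.8. Among the members with a 3-fold range, Scd1 alone had SNU-6621 as neither its highest nor its lowest line. It had 3.50 and 1.98 CPM in SNU-6621 and SNU-6622 but 85.2 and 23.6 CPM in SNU-6624 and SNU-6625. Scd2 ran from 1237 CPM in SNU-6621 through 1712 in SNU-6622 to 2912 and 3267 CPM in the other lines.

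**Figure D1:**
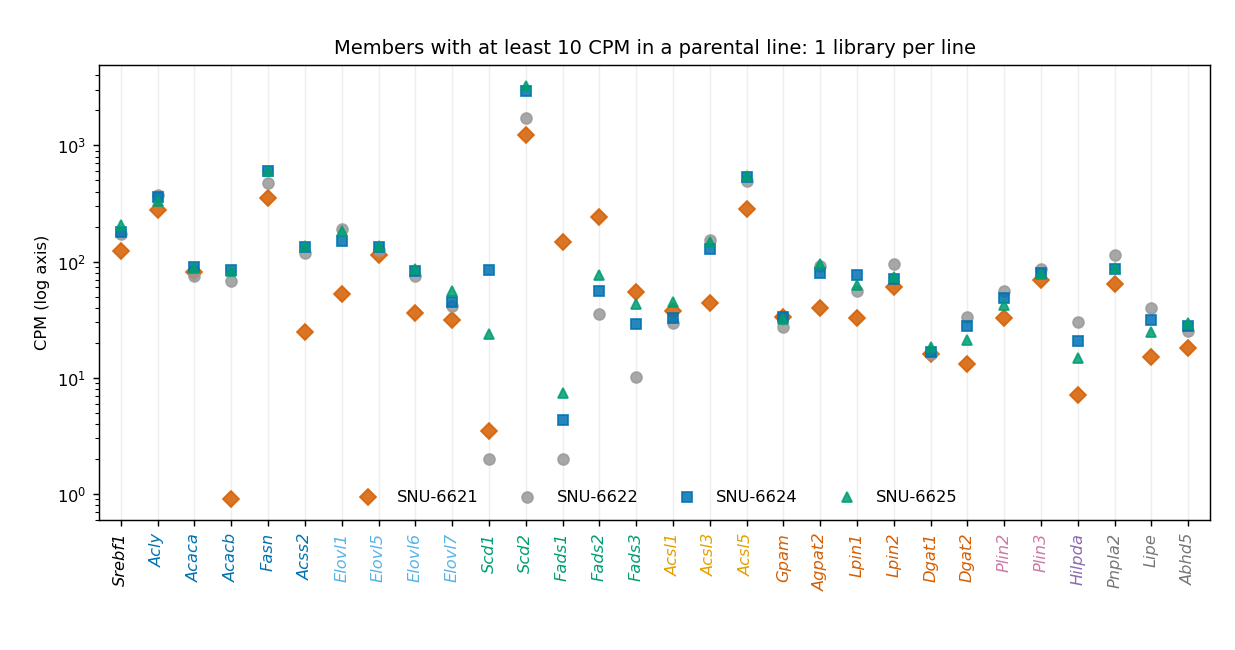
Levels in CPM (log axis) of the 30 members with at least 10 CPM in at least 1 parental line, with 1 point per line and gene names coloured by role. Diamonds (SNU-6621) lie below the other 3 lines for 22 members and above them for Fads1, Fads2 and Fads3, and Scd1 splits the lines into 2 pairs.

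The next comparison asks how the genes differ under lenvatinib in lines SNU-6624 and SNU-6625. The desaturases, fatty acid synthase, the elongase Elovl6 and their regulator Srebf1 were lower under lenvatinib in both lines, while Dgat1 was higher. The 38 members summed to 6250 CPM (SNU-6624) and 6661 CPM (SNU-6625) in parental libraries, against 2349 and 2461 CPM under lenvatinib. Scd2 alone made up 46.6% and 49.0% of the parental sums and 17.2% and 18.1% of the lenvatinib sums. Without Scd2 the sums were 3339 and 3394 against 1944 and 2016 CPM.

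Of 34 members tested, 6 fell and 1 rose at an adjusted p under 0.05, in edgeR's quasi-likelihood test over 17038 genes, of which 5.78% were called, 4.08% lower and 1.70% higher. At an unadjusted p under 0.05, 17 members were lower and 4 higher, against 17.2% and 14.6% of all genes. The median log2 fold change of the members was -0.83, and that of all genes tested was -0.01. Within lines, 22 members were lower in both, 10 were higher in both and 2 differed in sign, against 7144, 7051 and 2657 of all 17038 genes. The other 4 members had too few counts to be tested. The spread in this fit is shared with the resistant libraries, which differ much between lines. A fit to the 4 parental and lenvatinib libraries alone called 20 members lower and 8 higher, against 25.5% and 22.8% of all genes. The count higher is thus near the share for all genes in that fit. DESeq2 on the same 6 libraries called 17 lower and 3 higher, against 13.7% and 7.74% of all genes. Without any 1 of the 4 parental and lenvatinib libraries, 0 members and 0 of all genes were called in either direction. Each of the 7 calls above was lost in edgeR without a filter on low counts, with adjusted p from 0.0509 to 0.0654, and library size scaling kept those of Scd1 and Elovl6 alone.

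Srebf1 (chr11:60199084-60224186), whose product SREBP-1 activates lipogenic genes, had 178 and 208 CPM in parental and 79.8 and 87.8 CPM in lenvatinib SNU-6624 and SNU-6625. Both lenvatinib values lay below all 4 parental lines. Its log2 fold change was -1.29 (SE 0.19, adjusted p = 0.0429, edgeR). Mlxipl, the gene of ChREBP, stayed low, at 5.02 and 3.33 CPM in parental and 6.65 and 3.11 CPM in lenvatinib libraries.

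The synthesis enzymes differed in size of change. Fasn (chr11:120805958-120825166) had 597 and 602 CPM in parental and 127 and 151 CPM in lenvatinib SNU-6624 and SNU-6625. The groups did not overlap, and the log2 fold change was -2.18 (SE 0.51) with an adjusted p of 0.0752 in edgeR, above the threshold. Acacb had 84.5 and 82.3 against 6.52 and 9.58 CPM, a log2 fold change of -3.40 (adjusted p = 0.106, edgeR). Acaca had 89.98 and 88.8 against 53.9 and 50.8 CPM and Acly 359 and 333 against 254 and 258 CPM. These were smaller differences, with log2 fold changes of -0.86 and -0.52, and neither was called. Acss2 had 135 in both parental lines against 73.2 and 78.0 CPM, a log2 fold change of -0.92 (adjusted p = 0.0572, edgeR).

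The largest called fall was that of a desaturase. Scd1 had 85.2 and 23.6 CPM in parental and 2.21 and 0.478 CPM in lenvatinib SNU-6624 and SNU-6625, a log2 fold change of -5.60 (SE 0.61, adjusted p = 0.0370, edgeR). The call was lost without line as a block (adjusted p = 0.104, edgeR) and with all 8 libraries (0.181). The lenvatinib values were in the range of untreated SNU-6621 and SNU-6622 (3.50 and 1.98 CPM) or below it. Scd2 had 2912 and 3267 against 405 and 445 CPM. Its log2 fold change of -2.95 (SE 0.69) missed the threshold, with an adjusted p of 0.0757 in edgeR, although the groups lay far apart in both lines. Fads2 had 55.6 and 77.0 against 2.21 and 7.81 CPM, a log2 fold change of -3.86 (adjusted p = 0.0761, edgeR). Fads3 had 29.2 and 43.5 against 14.2 and 17.9 CPM and a log2 fold change of -1.23 (adjusted p = 0.113, edgeR). Fads1, at 4.30 and 7.37 against 0.230 and 1.32 CPM, was not called either (adjusted p = 0.0805, edgeR). All 5 desaturase genes were thus lower under lenvatinib in both lines, and 1 of them was called.

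The elongases did not move together. Elovl6 (chr3:129532386-129638495), which turns palmitate into stearate, had 82.4 and 87.1 CPM in parental and 12.8 and 10.04 CPM in lenvatinib SNU-6624 and SNU-6625. It fell by 3.01 on the log2 scale (SE 0.38, adjusted p = 0.0388, edgeR). Elovl1 (chr4:118426874-118432953) had 151 and 182 against 84.8 and 94.8 CPM, a log2 fold change of -0.97 (SE 0.16, adjusted p = 0.0468, edgeR), a call lost with all 8 libraries (0.302). Its exons overlap those of the mitosis gene Cdc20 on the opposite strand by 53 bases, 1.94% of its exon bases, and Cdc20 had 59.0 and 65.7 against 5.34 and 3.60 CPM. Elovl5, which extends polyunsaturated chains, had 134 and 136 against 143 and 130 CPM, so that the lines differed in sign. Elovl7 had 44.5 and 56.4 against 83.1 and 77.5 CPM, higher in both lines but not called (adjusted p = 0.368, edgeR).

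Among the acyl-CoA synthetases, Acsl5 (chr19:55251861-55296628) had 539 and 549 CPM in parental and 173 and 176 CPM in lenvatinib libraries. The replicates were close and the groups far apart, with a log2 fold change of -1.73 (SE 0.26, adjusted p = 0.0446, edgeR). Zdhhc6 overlaps 8.31% of its exon bases on the opposite strand and had 61.0 and 67.9 against 80.7 and 68.3 CPM. Acsl3 had 129 and 148 against 51.8 and 51.4 CPM, a log2 fold change of -1.51 (adjusted p = 0.0683, edgeR). Acsl1, which in liver and fat serves both oxidation and triglyceride synthesis, had 32.6 and 44.5 against 50.7 and 54.9 CPM and was not called.

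Triglyceride assembly held a called fall and a called rise. Lpin1 (chr12:16535669-16653903), a phosphatidic acid phosphatase, had 76.9 and 62.7 CPM in parental and 35.8 and 29.9 CPM in lenvatinib libraries, and fell by 1.17 on the log2 scale (SE 0.19, adjusted p = 0.0468, edgeR), a call lost without line as a block (0.0878) and with all 8 libraries (0.165). Dgat1 (chr15:76502012-76512021), which adds the last fatty acid to make triglyceride, had 16.6 and 18.6 against 38.8 and 40.1 CPM, a log2 fold change of 1.08 (SE 0.17, adjusted p = 0.0453, edgeR). All 4 parental lines had 16.1 to 18.6 CPM of Dgat1, below both lenvatinib values. Dgat2, an unrelated enzyme for the same step, had 28.0 and 21.0 against 25.7 and 18.5 CPM, within the spread of the parental lines. Gpam, which starts glycerolipid synthesis at mitochondria, had 33.6 and 31.9 against 59.4 and 58.5 CPM (log2 fold change 0.77, adjusted p = 0.0955, edgeR). Agpat2 had 80.4 and 95.8 against 50.7 and 56.6 CPM (log2 fold change -0.79, adjusted p = 0.0560, edgeR). Lpin2 had 70.6 and 73.7 against 99.5 and 110 CPM and was not called.

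None of the droplet and lipolysis genes among the 38 members was called under lenvatinib. Plin3, a perilipin found in most cells, had 79.8 and 78.4 CPM in parental and 157 and 143 CPM in lenvatinib libraries (log2 fold change 0.84, adjusted p = 0.0752, edgeR). Plin2, the main droplet coat of liver cells, had 48.2 and 42.6 against 60.8 CPM in both lenvatinib libraries. Hilpda had 20.8 and 14.8 against 28.6 and 31.7 CPM, Pnpla2 (adipose triglyceride lipase) 86.1 and 87.9 against 114 and 144 CPM, and its activator Abhd5 27.9 and 29.8 against 35.98 and 38.6 CPM. These 4 genes were higher in both lines, with adjusted p from 0.112 to 0.439 in edgeR. Lipe, hormone-sensitive lipase, had 31.2 and 25.0 against 17.3 and 21.1 CPM. Plin5 had 0.530 CPM in both parental libraries and 0 counts in both lenvatinib libraries, where 3 counts are 0.0530 and 0.0552 CPM.

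**Figure D2:**
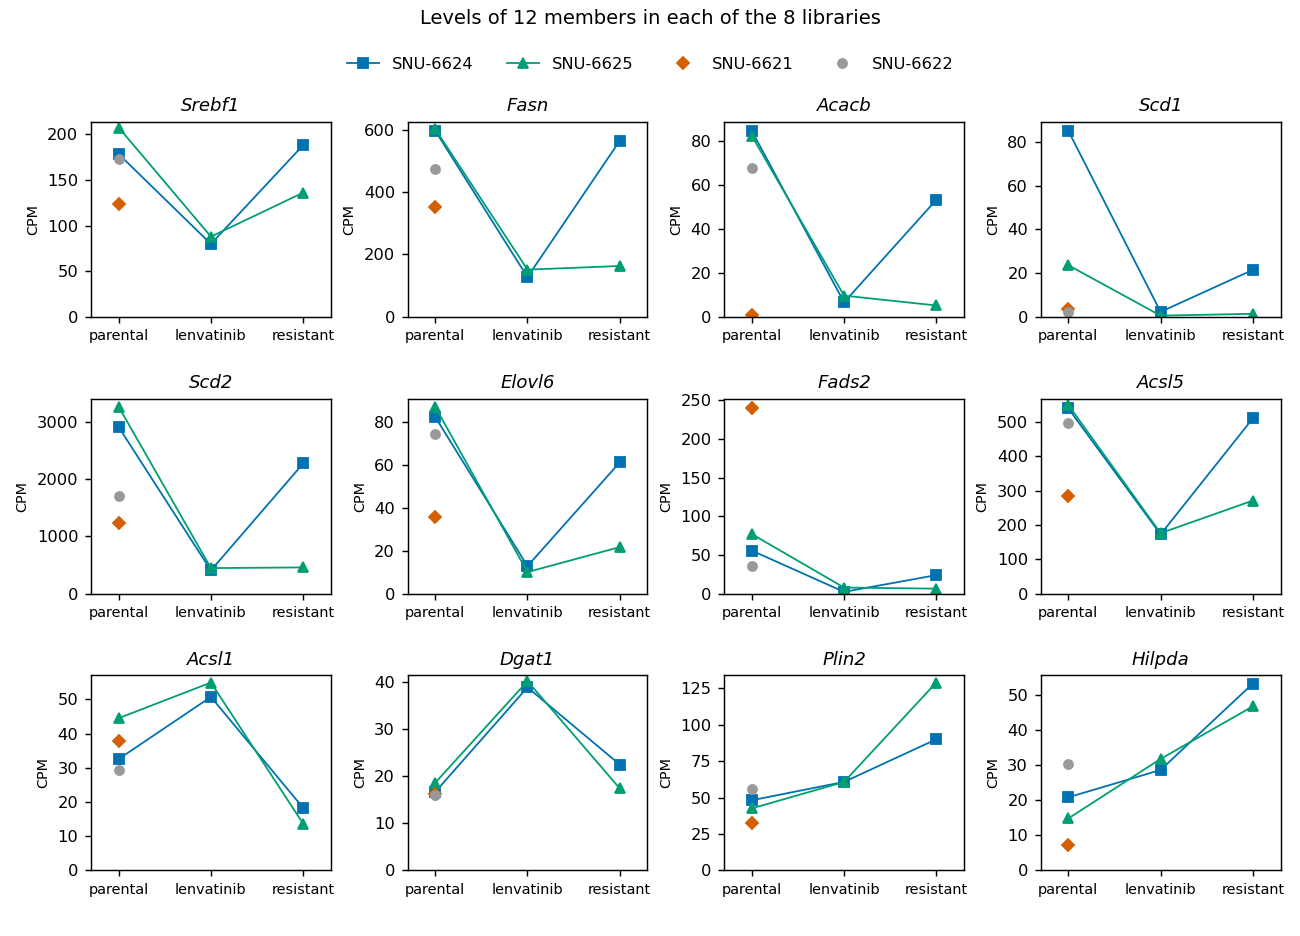
CPM of 12 members in the 8 libraries, with 1 point per library, separate linear axes that start at 0, and lines joining the libraries of SNU-6624 (squares) and SNU-6625 (triangles). Srebf1, Fasn, Scd2, Elovl6 and Acsl5 are low in both lenvatinib libraries, and in the resistant cultures Fasn, Acacb and Scd2 are near the lenvatinib level in SNU-6625 and nearer the parental level in SNU-6624.

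The resistant cultures were set against their parental lines to see which differences persist without the drug label. The culture of SNU-6624 lay near its parental line for Acly, Acaca and Fasn, that of SNU-6625 was lower for Acaca, Fasn, Acacb and Scd2, and Hilpda and Plin2 were higher in both. In edgeR, 0 of 34 members and 0% of the 17038 genes were called, the smallest adjusted p being 0.247. At an unadjusted p under 0.05, 6 members were lower and 2 higher, against 7.84% and 8.10% of all genes. DESeq2 called 4 lower (Scd1, Fads1, Acss2 and Acsl1) and 2 higher (Plin2 and Hilpda), against 3.33% and 3.15% of all genes, and limma-voom called 0. The median log2 fold change of the members was -0.24, against -0.01 for all genes. It was 0.00 with all 8 libraries, where the parental group also holds SNU-6621 and SNU-6622. Within lines, the median log2 ratio of TMM-scaled CPM + 1 was -0.08 in SNU-6624 and -0.47 in SNU-6625. For 11 members the sign differed between the lines, while 15 were lower in both and 8 higher in both. Over all 17038 genes tested, 6245 differed in sign, 5451 were lower in both and 5164 higher in both. Differences in sign between the lines were thus common over all genes.

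Leaving out a resistant library changed this outcome. Without resistant SNU-6625, edgeR called 2 members lower (Scd1 and Acss2) and 2 higher (Plin2 and Hilpda), against 1.86% and 1.40% of all genes. Without resistant SNU-6624 it called 16 lower and 8 higher, against 16.4% and 16.0% of all genes. The members' median moved to -0.61 without resistant SNU-6624 and to -0.08 without resistant SNU-6625, and to -0.43 or -0.12 without the parental library of SNU-6624 or of SNU-6625. The single library left in a group is then assumed to vary like the other groups.

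Acss2, Acsl1 and Scd1 had the smallest p-values among members lower in resistant cultures. Acss2 (chr2:155518043-155562743) had 135 CPM in both parental libraries and 50.4 and 33.1 CPM in resistant SNU-6624 and SNU-6625. The log2 fold change was -1.63 (SE 0.18), and both resistant values also lay below the lenvatinib values of 73.2 and 78.0 CPM. The neighbouring Gss, a glutathione synthesis gene, overlaps 395 of the 10163 Acss2 exon bases on the opposite strand. Summed over all genes of that strand, the overlaps came to 9.12% of the exon bases. Gss had 183 and 220 CPM in parental and 163 and 340 CPM in resistant libraries. Acsl1 (chr8:46471037-46536051) had 32.6 and 44.5 CPM in parental and 18.3 and 13.7 CPM in resistant libraries, a log2 fold change of -1.18 (SE 0.21). Scd1 had 85.2 and 23.6 against 21.4 and 1.31 CPM (log2 fold change -2.90, SE 0.54). The resistant SNU-6624 value of Scd1 lay close to the parental SNU-6625 value, so these groups did not separate without regard to line. Fads1 had 4.30 and 7.37 against 1.03 and 0.688 CPM (log2 fold change -2.54, SE 0.76), and Elovl6 82.4 and 87.1 against 61.2 and 21.7 CPM (log2 fold change -1.11, SE 0.36).

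Hilpda and Plin2 had the smallest p-values among members higher in resistant cultures. Hilpda (chr6:29272488-29275449) had 20.8 and 14.8 CPM in parental and 53.1 and 46.6 CPM in resistant SNU-6624 and SNU-6625, a log2 fold change of 1.58 (SE 0.21). Both resistant values exceeded every parental line and both lenvatinib libraries. Plin2 (chr4:86626910-86670217) had 48.2 and 42.6 against 90.1 and 129 CPM, a log2 fold change of 1.36 (SE 0.27), again above every other library. Of the next 3, Elovl7 had 44.5 and 56.4 against 54.5 and 138 CPM (log2 fold change 0.96), Lpin2 70.6 and 73.7 against 65.3 and 183 CPM (0.77) and Lipe 31.2 and 25.0 against 31.9 and 43.2 CPM (log2 fold change 0.49). For these 3 the difference lay in SNU-6625, with resistant SNU-6624 at or near its parental level.

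Several synthesis and desaturase genes differed between the 2 resistant cultures. Fasn had 564 CPM in resistant SNU-6624 and 163 CPM in resistant SNU-6625, within-line log2 ratios of -0.10 and -1.68. Scd2 had 2275 and 458 CPM (ratios -0.38 and -2.63), and Acacb 53.1 and 5.10 CPM (ratios -0.68 and -3.60). Acaca, at 97.2 and 26.5 CPM, was at its parental level in SNU-6624 (ratio 0.09) and lower in SNU-6625 (ratio -1.51). Fads2 had 23.9 and 6.36 CPM (log2 ratios -1.21 and -3.23). With 1 library per line and condition, the difference between the lines was not tested, and neither was the part of the low Mki67 counts of resistant SNU-6625. Acly did not show the split, at 408 and 318 CPM (log2 ratios 0.16 and 0.13). Srebf1 had 188 and 136 CPM (log2 ratios 0.05 and -0.41), a smaller gap than that of Fasn or Scd2.

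Summed over the 38 members, resistant SNU-6624 held 5483 CPM, near its parental 6250, and resistant SNU-6625 held 2751 CPM, near the 2349 and 2461 CPM of the lenvatinib libraries. Scd2 made up 41.5% of the sum in the former and 16.6% in the latter. Some other members were closer between the 2 resistant cultures, for example Hilpda at 53.1 and 46.6 CPM and Agpat2 at 78.7 and 87.6 CPM. Acss2 (50.4 and 33.1 CPM) and Acsl1 (18.3 and 13.7 CPM) lay below the parental level in both.

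**Figure D3:**
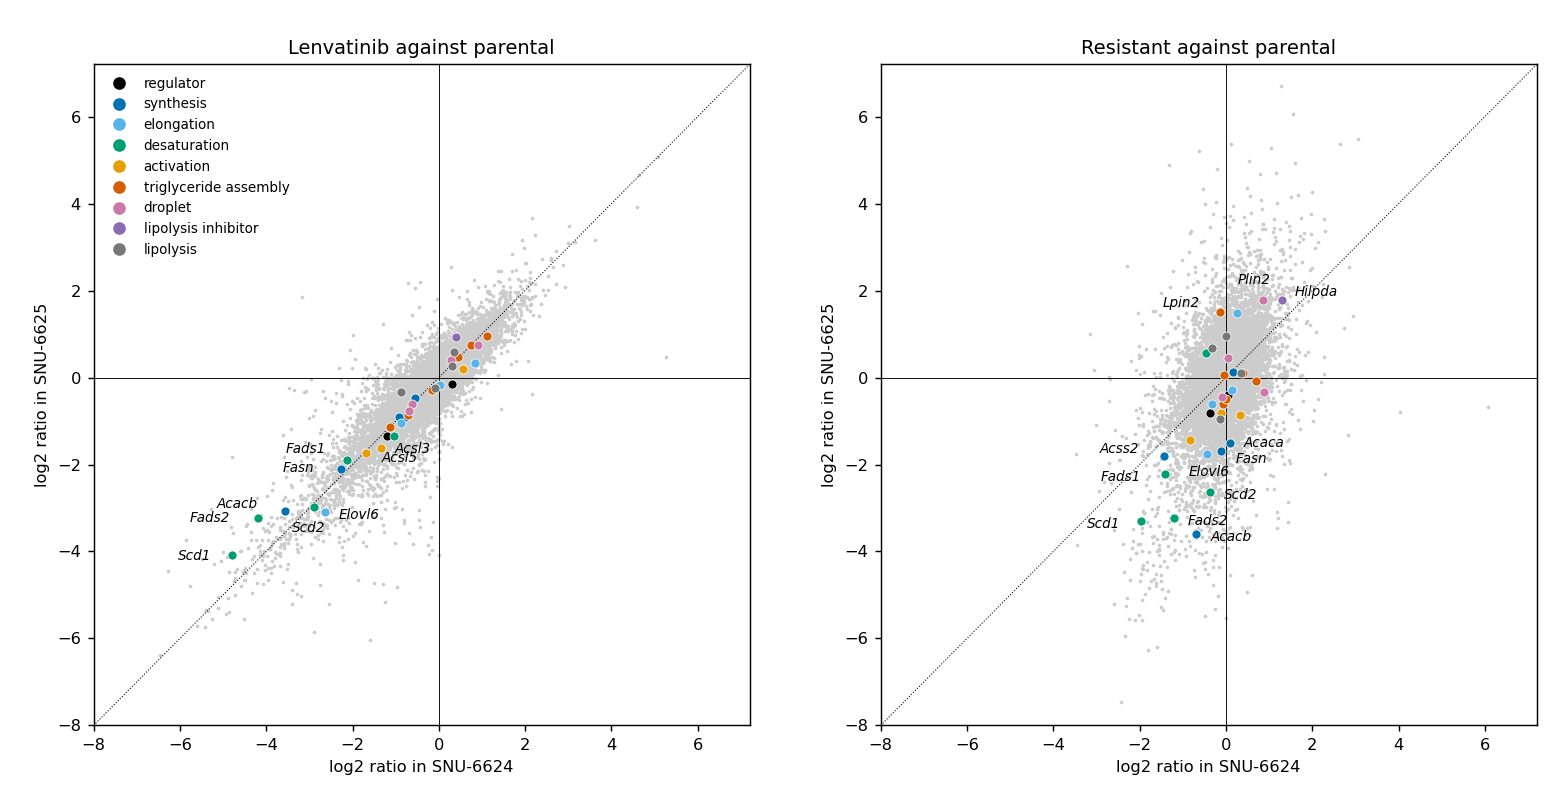
Log2 ratio to the parental library of the same line, on TMM-scaled CPM + 1, in SNU-6624 (x axis) and SNU-6625 (y axis), for all 17038 genes tested (grey) and the 34 members tested (coloured by role). Under lenvatinib the members lie along the dotted line of equal ratios, whereas in the resistant cultures Acaca, Fasn and Scd2 lie between -0.38 and 0.09 in SNU-6624 and between -2.63 and -1.51 in SNU-6625.

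Resistant and lenvatinib libraries were then compared directly, to see how the resistant cultures differ from parental organoids under the drug. Srebf1 was higher and Acsl1 lower in the resistant cultures. Of 34 members, 1 rose and 1 fell, against 4.14% and 2.08% of all genes (6.23% in either direction), shares near those of the members. At an unadjusted p under 0.05, 16 members were higher and 5 lower, against 16.4% and 14.0% of all genes, and the median log2 fold change was 0.73 (all genes 0.02), or 0.44 without resistant SNU-6624. This comparison shares its lenvatinib libraries with the first and its resistant libraries with the second, so the 3 are not independent. DESeq2 called 16 members higher and 4 lower, against 13.0% and 7.89% of all genes.

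Srebf1 had 79.8 and 87.8 CPM in lenvatinib and 188 and 136 CPM in resistant SNU-6624 and SNU-6625, a log2 fold change of 1.11 (SE 0.19, adjusted p = 0.0475, edgeR). Acsl1 had 50.7 and 54.9 against 18.3 and 13.7 CPM, and fell by 1.56 on the log2 scale (SE 0.21, adjusted p = 0.0382, edgeR). Both calls were lost in a fit to only the 4 libraries compared, with adjusted p of 0.103 and 0.0583 in edgeR, without a filter on low counts (0.0655 and 0.0542), and without any 1 parental or lenvatinib library, and that of Srebf1 also with library size scaling (0.0682). Both lenvatinib values of Acsl1 lay above, and both resistant values below, the parental 32.6 and 44.5 CPM. Gpam was also lower than under lenvatinib, at 59.4 against 32.8 CPM in SNU-6624 and 58.5 against 17.8 CPM in SNU-6625 (log2 fold change -1.11, adjusted p = 0.0562, edgeR). Resistant SNU-6624 was near its parental Gpam level of 33.6 CPM, whereas resistant SNU-6625 lay below its parental 31.9 CPM.

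Among members with a mean of at least 20 CPM over these libraries and the same direction in both lines, 8 were higher in resistant than in lenvatinib libraries by more than 1 on the log2 scale without being called: Fasn (1.37), Scd2 (1.58), Elovl6 (1.90), Fads3 (1.33), Acsl3 (1.27), Acsl5 (1.28), Plin2 (1.02) and Lipe (1.15). Of the rest, Scd1 (2.70), Cidec (2.58), Fads2 (1.81) and Acacb (1.53) also had fitted values above 1 at lower levels or with opposite signs, and were not called. No fold is given for Plin5, whose counts were near 0. The lines contributed unequally: for Fasn the log2 ratio was 2.17 in SNU-6624 and 0.41 in SNU-6625, for Scd2 2.52 and 0.35, and for Acsl5 1.59 and 0.93. Fads3 went the other way, with 14.2 and 17.9 CPM under lenvatinib and 21.2 and 56.9 CPM in the resistant cultures. Plin2 had 60.8 in both lenvatinib libraries against 90.1 and 129 CPM. Lipe had 17.3 and 21.1 against 31.9 and 43.2 CPM. Both of these droplet genes were further from the lenvatinib level in SNU-6625.

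**Figure D4:**
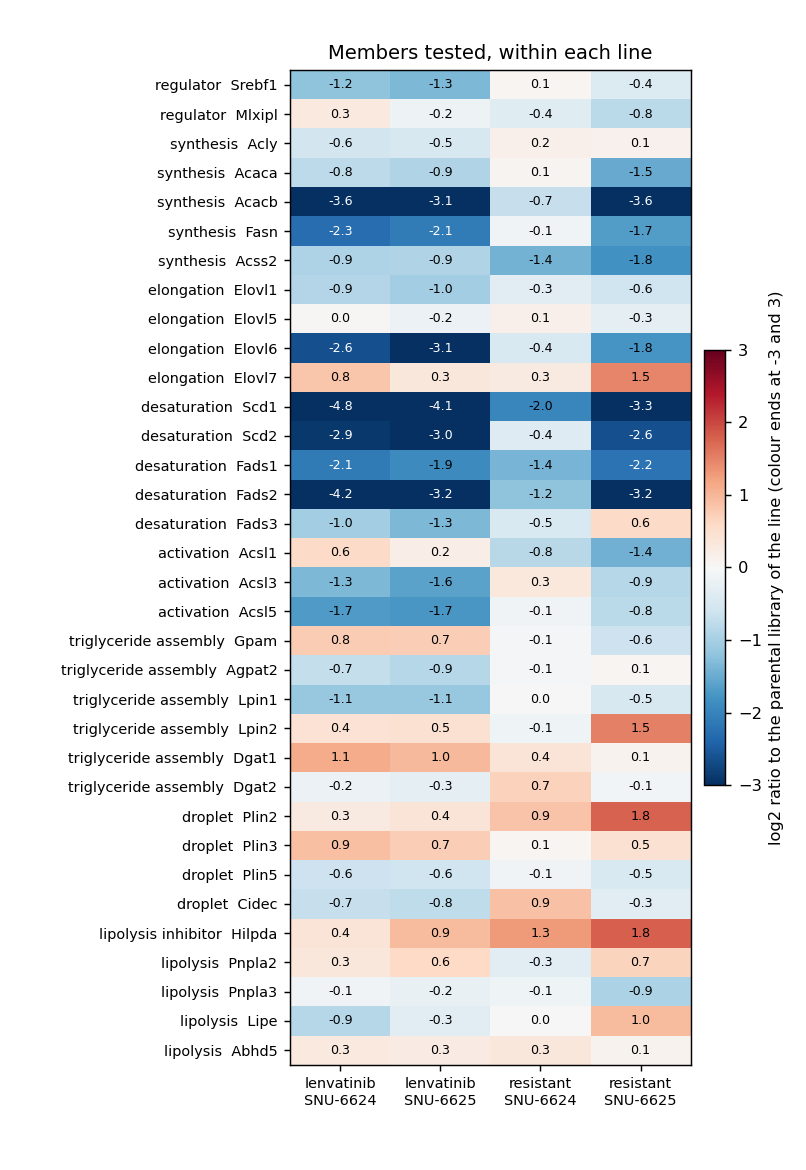
Log2 ratio of each lenvatinib and resistant library to the parental library of its line, on TMM-scaled CPM + 1, for the 34 members tested, ordered by role. Blue is lower and red higher than parental. The lenvatinib columns resemble each other, with Scd1 at -4.79 and -4.08 and Dgat1 at 1.12 and 0.96, and the resistant columns differ for Acaca, Fasn, Acacb and Scd2.

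Other genes of the pathway were counted from lists outside the 38 members, to be read against the 4.08% of all genes that fell and the 1.70% that rose under lenvatinib. Under lenvatinib, 2 of 14 regulators fell: Pparg, a nuclear receptor that drives fat storage, by 1.17 on the log2 scale (94.9 ± 5.60 to 44.7 ± 3.37 CPM, SD, n = 2), and Srebf2, the regulator of cholesterol synthesis, by 1.08 (346 ± 2.17 to 174 ± 1.75 CPM). Of 8 genes that supply citrate and NADPH, 1 fell, the cytosolic isocitrate dehydrogenase Idh1, by 1.82 (236 ± 81.0 to 70.6 ± 23.7 CPM). In the droplet and lipolysis list 1 of 10 tested genes fell (Hsd17b11, by 1.23), and among uptake and binding genes 1 of 7 (the fatty acid binding protein Fabp5, with a log2 fold change of -5.53). Fabp5 went from 170 ± 55.9 to 3.51 ± 0.709 CPM. None rose in any of these lists, 0 of 9 tested genes of the elongation cycle and other desaturases were called, and 0 of 10 acyl-CoA and glycerolipid enzymes.

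Against parental libraries, 0 genes of the 6 lists were called in the resistant cultures. Against lenvatinib libraries, where 4.14% of all genes rose and 2.08% fell, Pparg (log2 fold change 1.02), the arachidonate-preferring synthetase Acsl4 (1.55) and Hsd17b11 (1.53) rose, and Slc27a3, of the fatty acid transport protein family, fell by 3.35. These were 1 of 14 regulators, 1 of 10 acyl-CoA and glycerolipid enzymes, 1 of 10 droplet genes and 1 of 7 uptake genes tested. Pparg had 81.1 ± 13.2, Acsl4 155 ± 57.9, Hsd17b11 50.1 ± 0.528 and Slc27a3 1.13 ± 0.809 CPM in the resistant libraries (SD, n = 2). All of these calls are edgeR's, at an adjusted p under 0.05 over the 17038 genes. The scavenger receptor gene Cd36, a fatty acid importer of fatty liver, had at most 0.0198 CPM as a group mean and was not tested.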

How the data were processed

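The deposited files give whole-number read counts per gene for 8 libraries, per the file headers. Per the submitters' processing notes the build was mm10 and the tools included Trimmomatic 0.38, StringTie 2.1.3b, HISAT2 2.1.0, FastQC 0.11.7 and Bowtie2 2.3.4.1. Neither the counting step nor its strand setting is stated in the sources used here. Reads of overlapping genes can therefore not be told apart with certainty. Library totals ran from 49.0 to 61.0 M counts, which sets the precision; intervals and floors cover counting error only.

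The counts of the 6 libraries of SNU-6624 and SNU-6625 were tested with edgeR 4.0.16 in R 4.3.3 (quasi-likelihood F test, TMM scaling, the tool's filter by group, terms for group and line). Adjusted p-values are Benjamini-Hochberg values over the 17038 genes kept, and genes under 0.05 are called. The SE is the size of the log2 fold change over the root of the F statistic. All groups share 1 spread, with 2 residual and 2.53 prior degrees of freedom. Line was kept as a term because the same lines enter each group; the deviations of same-line libraries from their group means correlated at 0.281 (parental and resistant), 0.591 (parental and lenvatinib) and 0.274 (resistant and lenvatinib). The labels do not say whether libraries of 1 line came from separate cultures or animals, so the p-values measure only the spread between these libraries. Ratios within a line use TMM-scaled CPM with a pseudocount of 1 CPM. CPM is the count scaled to its library total. Exon lengths and overlaps come from GENCODE M21 and gene positions from RefSeq GRCm38.p6. The model fit was tried on simulated counts, which had a smaller spread than these data and no difference between lines. That trial does not measure how often the calls made here are wrong. No pair of libraries held identical counts.

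The members and lists were chosen with earlier results of these data known. Members are given with full statistics where called, or, where a comparison has none, for the 5 smallest p-values each way. Members not called are given as values where the fold passes 1 on the log2 scale in the same direction in both lines at 20 CPM or more, and in parental lines where the highest is at least 3 times the lowest and reaches 10 CPM; further members were added by role after their values were seen. Of the other pathway genes, called ones are named. The alternatives tried were no term for line, a fit to all 8 libraries, only the 4 libraries compared, DESeq2 1.42.0, limma-voom (limma 3.58.1), 2 other scalings, 2 other filters and each library left out in turn.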

Additional observations from a re-analysis of the deposited data

Results flagged for a closer look

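In the parental lines, Fads1 at 149 CPM in SNU-6621 lay far above the other 3 lines, and Acss2 at 24.5 CPM in SNU-6621 far below them, each by a gap that exceeds Dixon's critical value for 4 samples. Both came from SNU-6621, among 33 members examined, and chance alone passes that value in about 1 in 20 groups.

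Between resistant and lenvatinib libraries, 4 members had log2 ratios past 0.5 with opposite signs in the lines, and the difference between the lines was not tested. At any size of ratio, signs were opposite for 8 of 34 members and for 5297 of 17038 genes. The ratio of Acaca was 0.87 in SNU-6624 and -0.61 in SNU-6625, and that of Acacb 2.87 and -0.53. The ratio of Elovl7 was -0.57 in SNU-6624 and 1.13 in SNU-6625, and that of Lpin2 -0.57 and 1.03.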

How the results depend on the processing

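The 9 log2 fold changes called as reported kept their sign under every alternative run. Equal counts below need not mean the same members. With library size scaling the Dgat1 call under lenvatinib was lost (adjusted p = 0.0525, edgeR), and the 1 member called higher was another. Members called higher and lower, lenvatinib against parental, numbered 1 and 6 as reported, 3 and 6 with all 8 libraries, 8 and 20 with only the 4 libraries compared, 3 and 17 with DESeq2, 1 and 10 with limma-voom, 1 and 2 with library size scaling, 0 and 0 without a filter on low counts, and 0 to 8 and 0 to 20 with 1 library left out. The shares of all genes called moved with them: higher and lower, they were 7.52% and 5.47% with all 8 libraries, 22.8% and 25.5% with only the 4 libraries compared, 7.74% and 13.7% with DESeq2, 3.46% and 6.50% with limma-voom, 2.51% and 3.26% with library size scaling, 0.0563% and 0.644% without a filter, and 0% to 20.9% and 0% to 23.0% with 1 library left out. For resistant against parental the members called were 0 and 0 as reported, 2 and 4 with DESeq2, and 0 to 8 and 0 to 16 with 1 library left out, beside 3.15% and 3.33% of all genes with DESeq2 and up to 16.0% and 16.4% with 1 library left out. For resistant against lenvatinib they were 1 and 1 as reported, 2 and 3 with all 8 libraries, 0 and 0 with only the 4 libraries compared, 16 and 4 with DESeq2, 3 and 3 with limma-voom, 0 and 1 with library size scaling, 0 and 0 without a filter, 6 and 3 with a minimum of 5 CPM, and 0 to 21 and 0 to 7 with 1 library left out. The balance of higher and lower members in that comparison thus differed between alternatives. There the shares of all genes were 4.1% and 4.17% with all 8 libraries, 1.33% and 0.118% with only the 4 libraries compared, 13.0% and 7.89% with DESeq2, 5.77% and 3.55% with limma-voom, 3.50% and 3.89% with library size scaling, 1.04% and 0.266% without a filter, 9.17% and 5.70% at 5 CPM, and up to 18.8% and 16.2% with 1 library left out. Without line as a replicate block the 3 comparisons gave 1 and 5, 0 and 0, and 1 and 2 members. The shares of all genes were then 2.35% and 3.83%, 0% and 0%, and 4.01% and 2.56%. Of these member counts only that of lower members in the third comparison moved by over 1.5 times. Library size scaling moved the share of rises among all genes called from 29.3% to 43.4% (lenvatinib against parental) and from 66.5% to 47.3% (resistant against lenvatinib), and in the latter the median of all genes went from 0.02 to -0.14. The cause of these changes was not tested.

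Each condition has 1 library per line. Members under 3 CPM are limited by counting error. Low Scd1 levels are limited by stretches that Scd1 and Scd2 share, and Scd1 also shares stretches with Scd3 and Scd4.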
